A study of Mus musculus with 36 samples.

Results

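The cytochrome P450 genes were followed in kidneys of newborn mice in which polycystic kidney disease develops. Symbols of the form Cyp, a family number, a letter and a gene number, together with Cyp51, were taken from a table of RNA-seq read counts, and the adrenal steroid genes Cyp11a1, Cyp11b1, Cyp11b2, Cyp17a1 and Cyp21a1 were left out. For each gene the transcript with the highest mean count was used. A gene was kept when at least 3 of the 36 libraries held 10 or more counts, which left 34 of 89 P450 genes with a row, out of 20458 gene symbols in the table. Cyp3a11, with 4 such libraries, was the kept gene closest to the limit. The genes next below it, among them Cyp3a16 and Cyp2d10, had 1 such library each.

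Mice on a C57BL/6 background carried floxed alleles of Pkd1 or Pkd2, the genes for polycystin-1 and polycystin-2. In the KO mice, Pkd1f/f:HoxB7-Cre and Pkd2f/f:HoxB7-Cre, the HoxB7-Cre transgene deletes the floxed exons in the collecting duct, and the WT mice were Pkd1f/f or Pkd2f/f littermates without Cre. RNA of kidney tissue was sequenced on postnatal days 1, 3 and 7 (P1, P3 and P7) with 3 libraries per group and 12 groups, and all groups carried the floxed alleles. Because deletion is limited to the collecting duct while the RNA is of the kidney, every value is an average over deleted and intact cells. Which mice shared a litter is not given in the sources used here, so that p-values describe the spread between these libraries.

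P450 enzymes are haem proteins of the endoplasmic reticulum and of mitochondria that insert an oxygen atom into lipids, steroids, vitamins and drugs. They draw electrons from cytochrome P450 reductase (Por) or, in mitochondria, from ferredoxin. In the kidney they are known above all from the proximal tubule, where Cyp4a enzymes hydroxylate the end of fatty acids such as arachidonic acid, Cyp2c and Cyp2j enzymes form epoxides of it, and Cyp27b1 makes the active form of vitamin D.

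Library totals ran from 7179152 to 15850818 counts. The transcript of the deleted gene was followed first. Pkd1 stood at a log2 fold change of 0.10 ± 0.118 (SE, edgeR adjusted p = 0.595) in Pkd1 KO at P7, and Pkd2 at -0.29 ± 0.053 (adjusted p = 0.0122) in Pkd2 KO at P7. These rows sum the reads of all exons and cannot show the deleted exons by themselves. 18 libraries held 3926 to 5041 counts of Y-linked transcripts and the other 18 at most 5. At P7 in the Pkd1 model, all 3 KO libraries held them and no WT library did, so that genotype and the presence of Y-linked RNA cannot be told apart there. In the Pkd2 model at P7, all 3 KO libraries and WT replicates 1 and 2 held them.

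4 libraries stood apart by RNA of other organs. Cyp21a1, an enzyme of adrenal steroid synthesis, reached 7666 counts in Pkd1 P7 KO replicate 1, 28854 in Pkd2 P3 WT replicate 2 and 5876 in Pkd2 P7 KO replicate 3, against at most 138 in the 32 libraries left without these 3 and Pkd2 P3 KO replicate 3. That library held 29521 counts of Alb, the albumin gene of liver, against at most 2125 elsewhere. Calls of P450 genes in the main edgeR fits below are also given without these 4 libraries where they changed. Calls of marker genes and partner genes are given with all libraries only.

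Several P450 genes followed that RNA. Cyp2f2, known from airway cells, had 138, 295 and 98 counts in the 3 libraries rich in Cyp21a1 and at most 14 in the others. Cyp3a11, a drug-metabolizing enzyme of liver, had 209 counts in the library rich in Alb and at most 15 elsewhere. Of 55 P450 genes left out by the count rule, 16 reached 10 counts in a library, and for 15 of them the highest count was in that same library, as for Cyp3a16 (147), Cyp2c68 (84) and Cyp8b1 (45). Cyp2e1, which oxidizes ethanol, had 50.4 CPM (the count of a gene scaled to the TMM-adjusted total of its library) there and at most 23 in any other library. Cyp4f15 stood at 5.33 CPM there and at most 1.61 elsewhere. The part of adrenal and liver RNA in the values of these genes was not tested beyond this.

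**Figure D1:**
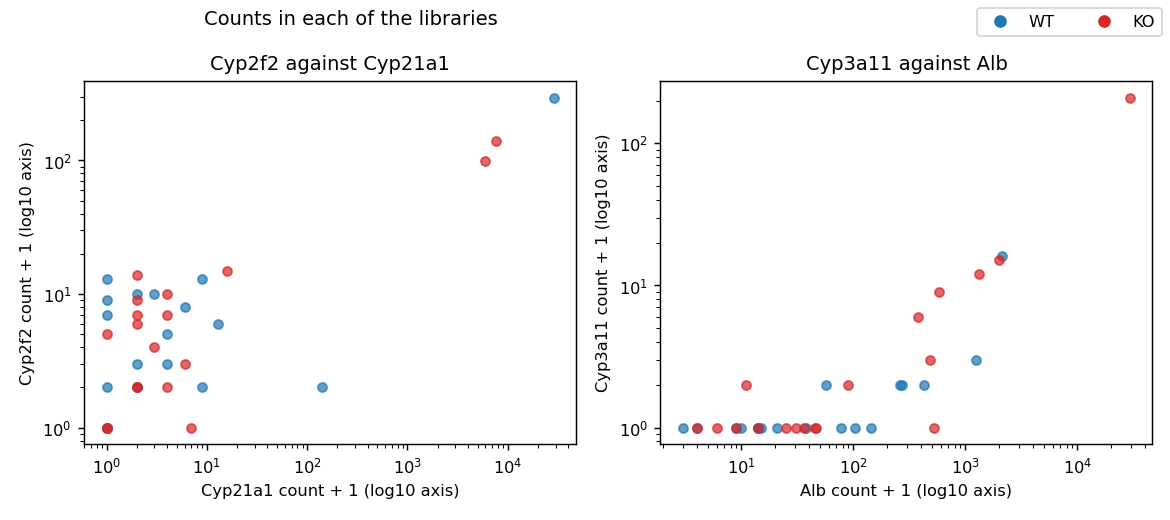
Counts in each of the 36 libraries (points, WT blue and KO red, log10 axes, 1 added to each count) of Cyp2f2 against the adrenal gene Cyp21a1 and of Cyp3a11 against the liver gene Alb. The 3 libraries with the highest Cyp21a1 counts hold the 3 highest Cyp2f2 counts (98, 138 and 295), and the library with 29521 counts of Alb holds the highest Cyp3a11 count (209).

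The deposited table itself sets a limit on which P450 genes could be seen. 8 of the 89 P450 genes had more than 1 transcript row, and none of their rows exceeded 15 counts in a library. Over the table, 26.3% of the 4726 symbols with 2 or more rows reached a mean of 10 counts against 65% of the 15732 symbols with 1 row. HTSeq with default options drops a read that matches more than 1 feature. Cyp1a1 (2 rows), Cyp26b1 (2 rows) and Cyp39a1 (3 rows) were among those 8, at no more than 1 count in any library, and no statement on their expression is made. Cyp2r1 had at most 9 counts and Cyp26c1 at most 6. Of the 8, Cyp2c23 was kept, with at most 15 counts.

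5 genes led the family in WT kidneys at P7, on a scale of CPM per kilobase of transcript. Cyp2j5, an arachidonic acid epoxygenase, stood at 122 ± 22.3 (SD, n = 6 WT libraries of both models). It was followed by Cyp2d26 at 104 ± 11.7, Cyp4a14 at 66.2 ± 23.2, Cyp4a10 at 61.1 ± 11.8 and Cyp2s1 at 49.3 ± 9.82. The ranges of Cyp2j5 (96 to 153) and Cyp2d26 (88.2 to 120) overlapped, so these are not ordered, and neither are Cyp4a14 (28.9 to 85), Cyp4a10 (45.7 to 73.7) and Cyp2s1 (39.4 to 63.5). Cyp2j6 and Cyp51 came next at 27.3 ± 1.83 and 26.7 ± 5.11, and the last 12 genes ran from 2.05 ± 0.727 for Cyp2e1 down to 0.00577 ± 0.0141 for Cyp3a11. Summed over the 34 genes, the family held 1390 ± 49.7 CPM (SD, n = 3) in Pkd1 WT and 1590 ± 143 CPM in Pkd2 WT at P7, against 884 ± 106 and 1160 ± 62.5 CPM in the KO groups.

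At P7 the P450 genes that passed the edgeR test between KO and WT were all lower in KO, and the same 5 were found in both models. These were the fatty acid hydroxylases Cyp4a10 and Cyp4a14, the epoxygenase genes Cyp2j5 and Cyp2j11, and Cyp2d26. Cyp2s1, an extrahepatic P450, was called in the Pkd1 model in addition. The share of all transcripts called in both models was not computed, so the overlap of 5 genes has no background here. At P1 and P3 no P450 gene passed.

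Cyp4a14 had the lowest log2 fold change among the called genes in each model, within the SE of Cyp2j11 in Pkd1. In the Pkd1 model at P7 its level was 115, 194 and 72.2 CPM in WT and 36, 9.34 and 23.1 CPM in KO, a log2 fold change of -2.49 ± 0.492 (SE, edgeR adjusted p = 0.0188, n = 3 and 3). In Pkd2 kidneys it was 212, 211 and 186 CPM in WT and 45.3, 84.3 and 107 CPM in KO, a log2 fold change of -1.36 ± 0.26 (adjusted p = 0.0144). KO and WT libraries did not overlap in either model.

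Cyp4a10 stood at 99.3, 135 and 96.4 CPM in Pkd1 WT and at 42.6, 22.5 and 41.8 CPM in Pkd1 KO. Pkd2 kidneys had 142, 155 and 145 CPM in WT and 53.4, 68.4 and 89.1 CPM in KO. All KO libraries lay under all WT libraries of their model, with log2 fold changes of -1.64 ± 0.247 (adjusted p = 0.0101) and -1.06 ± 0.162 (adjusted p = 0.00598). Of the 50-base words of the Cyp4a10 transcript, 30.5% also occur in Cyp4a31 or Cyp4a32, so that reads of these genes may be split or lost between them, and its level is uncertain. For Cyp4a14 that share was 0.245%.

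Cyp2j5 lay at 252, 287 and 225 CPM in Pkd1 WT and at 105, 48.1 and 95.9 CPM in Pkd1 KO (log2 fold change -1.63 ± 0.26, adjusted p = 0.0113). In Pkd2 it lay at 335, 359 and 254 CPM in WT and at 161, 200 and 207 CPM in KO (log2 fold change -0.73 ± 0.145, adjusted p = 0.0157). In both models the lowest WT library was above the highest KO library.

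Cyp2j11 lies in the Cyp2j cluster of chromosome 4 (chr4:96294508-96348693), apart from Cyp2j5 (chr4:96627432-96664171), with Cyp2j8, Cyp2j6 and Cyp2j9 between them. Cyp2j6 and Cyp2j9 did not pass at P7 in either model. Its levels at P7 were 22.8, 26.4 and 19.7 CPM in Pkd1 WT and 5.6, 1.48 and 8.2 CPM in Pkd1 KO. Those of Pkd2 were 30.3, 32.6 and 31.3 CPM in WT and 18.8, 15.8 and 17.9 CPM in KO. The groups were apart in both, with log2 fold changes of -2.18 ± 0.482 (adjusted p = 0.0268) and -0.84 ± 0.0994 (adjusted p = 0.00227).

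Sequence upstream of Cyp2j5 and Cyp2j11 is shown because they were the epoxygenase genes called at P7. RefSeq promoter entries (GRCm38.p6) were found for 26 of the 34 genes, and the 250 bases before the start of each entry were searched on both strands for AGGTCA, the motif bound by nuclear receptors such as Hnf4a and Ppara, and for TATAAA, the TATA box, which do not overlap one another in the bases printed. The bases printed lie before the outermost start of the gene, 5′ to 3′ on the minus strand, at chr4:96664172-96664369 for Cyp2j5 and chr4:96348694-96348930 for Cyp2j11, with matches in capitals.
Cyp2j5: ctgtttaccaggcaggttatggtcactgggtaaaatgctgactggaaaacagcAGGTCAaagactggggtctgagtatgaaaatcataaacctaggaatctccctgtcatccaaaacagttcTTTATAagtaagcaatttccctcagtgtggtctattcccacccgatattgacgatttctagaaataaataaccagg
Cyp2j11: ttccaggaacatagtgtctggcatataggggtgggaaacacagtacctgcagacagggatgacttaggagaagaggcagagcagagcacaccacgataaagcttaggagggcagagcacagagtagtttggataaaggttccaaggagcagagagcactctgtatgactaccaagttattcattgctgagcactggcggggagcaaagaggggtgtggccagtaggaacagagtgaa

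The Cyp2j5 window held AGGTCA beginning 197 bases before the entry's start. It also held TATAAA on the opposite strand, printed as TTTATA, at 128 bases, which is a match of letters only. The Cyp2j11 window held none of the motifs. AGGTCA occurs in 14% of the 32851 promoter entries and in 4 of the 26 P450 entries (Cyp2f2, Cyp2j5, Cyp2t4 and Cyp3a11). TATAAA occurs in 12.4% and in 4 (Cyp2d26, Cyp2e1, Cyp2j5 and Cyp3a11), and GTTAAT in 6.43% and in 1 (Cyp2d26). The entries used do not include Cyp4a10 and Cyp4a14.

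Cyp2d26 fell by 1.27 ± 0.201 (adjusted p = 0.0112) on the log2 scale in Pkd1 KO, from 174, 161 and 204 CPM in WT to 82.1, 51.4 and 91 CPM. In Pkd2 KO it fell by 0.79 ± 0.12 (adjusted p = 0.00578), from 186, 191 and 150 CPM to 90.1, 97.7 and 115 CPM. Of its 50-base words, 10.5% are shared with other Cyp2d genes. Cyp2s1 stood at 131, 110 and 174 CPM in Pkd1 WT and 85.8, 73.3 and 81.3 CPM in Pkd1 KO (log2 fold change -0.79 ± 0.168, adjusted p = 0.0235). In the Pkd2 model its KO libraries (102, 93.5 and 78.2 CPM) also lay under its WT libraries (127, 161 and 108 CPM), and the change of -0.53 ± 0.154 did not pass (adjusted p = 0.0568).

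**Figure D2:**
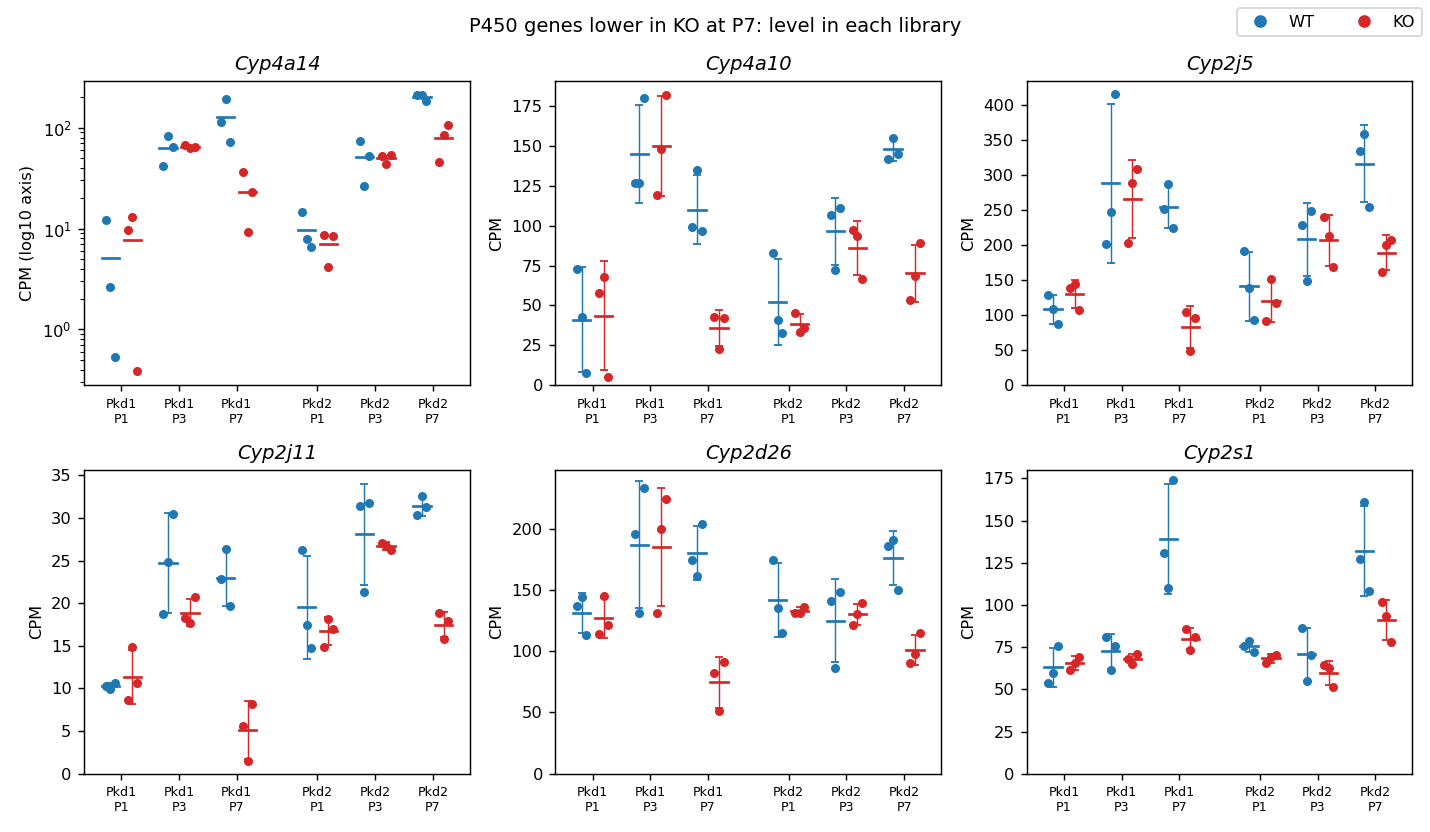
Level in CPM of the 6 P450 genes lower in KO at P7, in each library (points, WT blue and KO red) by model and day. Horizontal lines are means of 3 libraries and bars are SD (no bars for Cyp4a14, on a log10 axis). At P7 the KO points lie under the WT points of the same model for each gene, while at P1 and P3 the KO and WT points are mixed in most panels.

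In the Pkd1 model at P7, 6 of 28 tested P450 genes were called (21.4%), against 13.7% of all 12527 transcripts tested in either direction and 7.54% in the lower direction. In Pkd2, 5 of 34 were called (14.7%), against 13.9% of 12633 in either direction and 6.06% in the lower direction. The median log2 fold change of the tested P450 genes was -0.13 in Pkd1 and -0.04 in Pkd2, and that of all tested transcripts was -0.01 and 0. Values lay below 0 for 17 and above 0 for 11 of the tested P450 genes in Pkd1, and for 18 and 16 in Pkd2. In Pkd1 all 10 tested Cyp2 genes (the Cyp2c and Cyp2j epoxygenases and the other Cyp2 genes) had values below 0. This was not so in Pkd2, where Cyp2e1 (0.01) and Cyp2u1 (0.03) lay above 0. Cyp2c23 (0.32) and Cyp2f2 (1.99), tested in Pkd2 alone, did so too, and the rest of the tested Cyp2 genes lay below 0. At an unadjusted p under 0.05, 9 P450 genes in Pkd1 and 13 in Pkd2 differed, where 33.6% and 29.6% of all transcripts did. With DESeq2, 7 P450 genes were called in Pkd1, all lower, and 10 in Pkd2, 8 lower and 2 higher (Cyp1b1 and Cyp24a1). The share of all transcripts called was computed for the main edgeR fits only. Counts of calls under DESeq2 and other settings therefore have no background here.

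The calls rested on few libraries. Cyp2d26, Cyp2j5 and Cyp4a10 were called in Pkd1 in each of the 6 fits that leave out 1 library. With all 18 libraries of a model in 1 fit, 7 genes were called in Pkd1 and 6 in Pkd2. Cyp4a10 was then lost in Pkd1 (-1.64 ± 0.66, adjusted p = 0.0692), where Cyp20a1 and Cyp2j6 were added, and Cyp2j5 in Pkd2 (-0.73 ± 0.248, adjusted p = 0.0611), where Cyp2j6 and Cyp2s1 were added. In the fits that leave out 1 Pkd1 library, Cyp2j11 was lost without WT replicate 1, WT replicate 2 or KO replicate 1, Cyp4a14 without WT replicate 1, KO replicate 2 or KO replicate 3, and Cyp2s1 without WT replicate 1 or any KO replicate, which gave 3 calls without WT replicate 1. KO replicate 1 is the library with adrenal RNA, without which Cyp2d26, Cyp2j5, Cyp4a10 and Cyp4a14 were called. In the Pkd2 model Cyp2j5 and Cyp4a14 were lost without WT replicate 1 or KO replicate 2, and without KO replicate 3, the library with adrenal RNA, the same 5 genes were called.

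Where the presence of Y-linked counts was a term of a fit over all 18 Pkd1 libraries, no P450 gene was called at P7, against 7 in the same fit without the term. The log2 fold changes of the 6 genes remained negative, from -0.90 ± 0.284 for Cyp2s1 (adjusted p = 0.197) to -3.75 ± 1.74 for Cyp4a14 (adjusted p = 0.355), and Cyp2j5 stood at -1.59 ± 0.532 (adjusted p = 0.218). That term is estimated in effect from the 3 WT libraries of P1 alone, since only these differ in it within a group. With the same term in Pkd2, 5 genes were called lower, among them Cyp2s1. The same fit without the term called 6, these and Cyp2j6. Cyp2j5 was called in neither (-0.79 ± 0.255, adjusted p = 0.0548 with the term). In the Pkd2 model the comparison can be made among libraries with Y-linked counts, by leaving out WT replicate 3. 6 P450 genes were then called lower, the 5 found in both models at P7 and Cyp2s1.

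**Figure D3:**
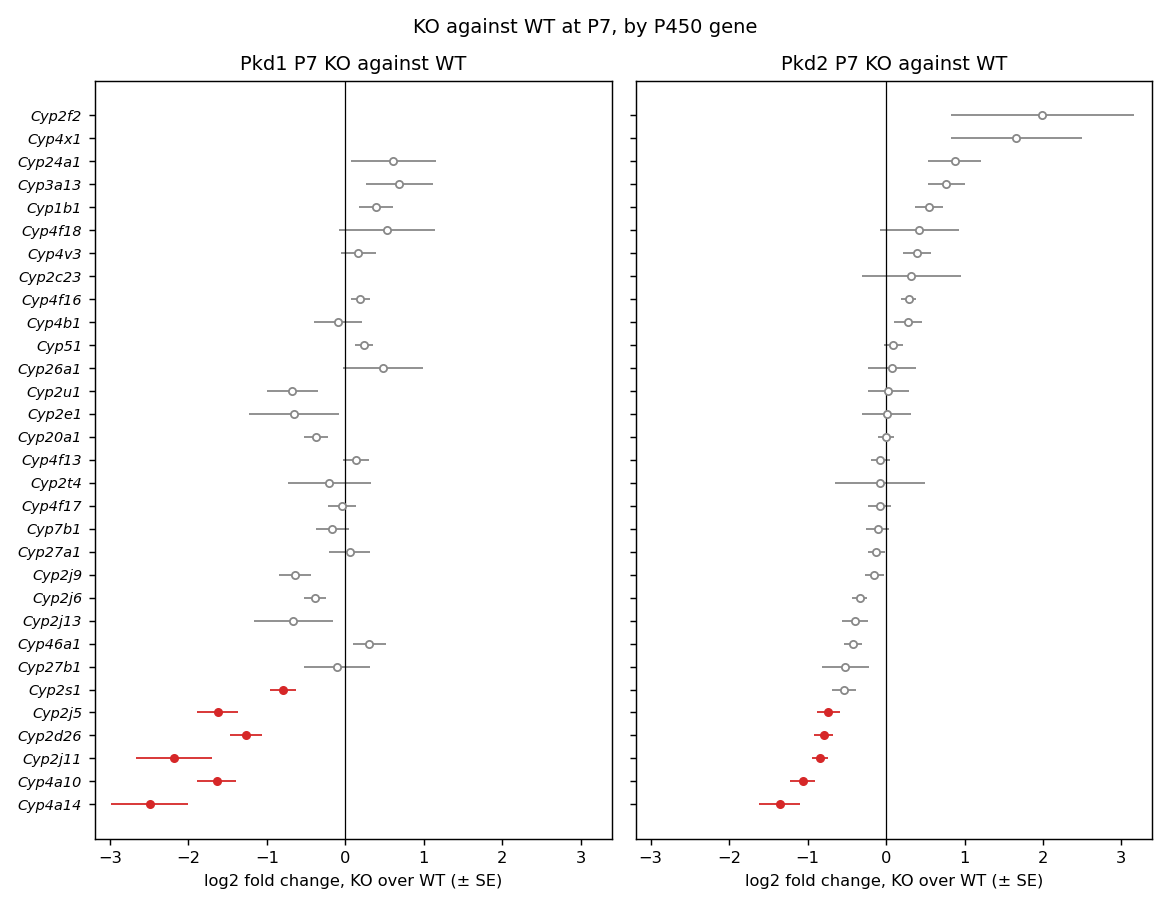
Log2 fold change of KO over WT at P7 with its SE (bars) for each tested P450 gene, in the Pkd1 model (left) and the Pkd2 model (right), with genes ordered by the Pkd2 value. Filled red points have an edgeR adjusted p under 0.05, all of them lower in KO, and the 6 genes at the bottom are the 6 called in Pkd1. Cyp3a11, Cyp4f15 and Cyp4f39 (SE above 1.2 in Pkd2) are not drawn, and genes without a point on the left were not tested there.

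Markers of the proximal tubule moved in the same comparison. Of 14 listed genes, 12 were tested, and Slc5a12 and Slc22a8 were at 3 counts or fewer in every library. For listed genes at 3 counts or fewer, here and below, the number of transcript rows is not given. The limit on genes with more than 1 row may apply, and no statement on their expression is made. All 12 tested genes were called lower in Pkd1 KO at P7, with a median log2 fold change of -1.54 (range -2.89 to -0.91). In Pkd2 KO 11 of 12 were called lower, with a median of -0.74 (range -1.65 to -0.48), and Kap stood at -1.54 ± 0.447 (adjusted p = 0.0567). The summed level of the list was 7610 to 8830 CPM in Pkd1 WT and 1900 to 4020 CPM in Pkd1 KO, and 8610 to 9950 CPM in Pkd2 WT and 4700 to 5480 CPM in Pkd2 KO. In RNA of a tissue, fewer cells of a type and less RNA per cell cannot be told apart, and the part of the proximal tubule in the fall of the P450 genes was not tested.

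Collecting duct markers also differed, with 3 of 4 tested called lower in each model. Their summed level was 946 to 1080 CPM in Pkd1 WT against 362 to 510 CPM in KO. In Pkd2 it was 849 to 1250 CPM in WT against 476 to 558 CPM in KO. Of 6 macrophage markers, 2 were called higher in Pkd1 KO and 4 in Pkd2 KO. Their summed levels were 212 to 308 CPM in Pkd1 WT against 343 to 416 CPM in KO, and 215 to 257 CPM in Pkd2 WT against 342 to 455 CPM in KO. Scnn1b and Fxyd4 of the collecting duct list were at 3 counts or fewer in every library. Of 3 thick ascending limb markers tested, 1 was called lower in each model (Slc12a1 in Pkd1, Kcnj1 in Pkd2), and Umod was at 3 counts or fewer in every library. The median log2 fold change of the 3 was -2.22 in Pkd1 (range -3.34 to -0.12) and -1.13 in Pkd2 (range -1.34 to 0.12). Among 3 fibroblast markers tested, Dcn was called lower in both models and Col1a1 was called higher in Pkd2 KO (log2 fold change 0.89 ± 0.133, adjusted p = 0.00563), while Pdgfrb was at 3 counts or fewer in every library. None of the tested adrenal markers was called (3 in Pkd1, 6 in Pkd2), and of the liver markers Ttr was called lower in both models (1 of 4 and 1 of 5).

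At P1 no P450 gene was called, of 28 in Pkd1 and 34 in Pkd2, and 0% of all transcripts were called in either model. At P3 none was called either, where 0.00798% of Pkd1 transcripts and 0% of Pkd2 transcripts were called. Unadjusted p values under 0.05 were found for 1 gene each in Pkd1 at P1 (Cyp2t4) and P3 (Cyp2j6), and for 2 each in Pkd2 at P1 (Cyp4f15 and Cyp4f18) and P3 (Cyp4f39 and Cyp24a1). The shares of all transcripts were 1.29% and 14.1% in Pkd1 and 5.6% and 4.46% in Pkd2. DESeq2 also called none at P1 or P3, and gave no adjusted p for 3 of the genes at P3 in each model. The smallest unadjusted p was that of Cyp4f15 at Pkd2 P1, at 0.0781, 0.0688 and 0.0765 CPM in WT and 0.817, 1.61 and 0.877 CPM in KO (log2 fold change 3.75 ± 0.603, adjusted p = 0.476).

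The change of the KO effect between P1 and P7 was tested as an interaction. In the Pkd1 model, 4.1% of all transcripts passed with a more negative KO effect at P7. Of 28 P450 genes, 4 passed, all in that direction. These were Cyp2j11 at -2.31 ± 0.512 (log2, SE, adjusted p = 0.0143), Cyp2j5 at -1.88 ± 0.39 (adjusted p = 0.0114), Cyp2d26 at -1.21 ± 0.318 (adjusted p = 0.0305) and Cyp2s1 at -0.84 ± 0.211 (adjusted p = 0.0256). At P1 Cyp2j5 lay at 128, 109 and 86.8 CPM in WT and 139, 144 and 107 CPM in KO, so that the groups overlapped. Cyp4a14 did not pass, at -3.03 ± 1.1 (adjusted p = 0.0935). Y-linked counts were absent from all KO libraries at P1 and present in 2 of 3 WT libraries, the reverse of P7, and this difference cannot be told apart from the interaction. Without P1 KO replicate 2 only Cyp2j5 was called (1 gene), and without P7 KO replicate 2 only Cyp2j5 and Cyp2j11 (2 genes).

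In Pkd2 none of 34 P450 genes passed for the change of the KO effect, against 1.3% of all transcripts called in either direction, and 6 had an unadjusted p under 0.05, as did 15.5% of all transcripts. Without Pkd2 P1 WT replicate 1, Cyp2j11 was called. Between the models at P7, the KO effect on Cyp2j11 was lower in Pkd1 by -1.32 ± 0.519 (adjusted p = 0.234). That on Cyp2j5 was lower by -0.87 ± 0.329 (adjusted p = 0.218). The KO effect on Cyp46a1 went the other way, higher in Pkd1 by 0.74 ± 0.245 (adjusted p = 0.183). None of 28 genes passed and 0% of 12343 transcripts passed, while 3 P450 genes and 17.3% of all transcripts had an unadjusted p under 0.05. Without Pkd1 P7 WT replicate 3, Cyp46a1 was called. A larger fall in the Pkd1 model is therefore not shown.

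By role, the epoxygenase group, Cyp2c and Cyp2j, had 22 genes with a row and 5 tested in Pkd1 at P7. Of these, 2 were called lower, and the median log2 fold change was -0.66 (range -2.18 to -0.39). In Pkd2 6 were tested, with 2 called lower and a median of -0.36 (range -0.84 to 0.32). Outside the called pair, Cyp2j6 went from 96.5 ± 9.66 CPM in Pkd1 WT to 73.8 ± 11.7 CPM in KO (adjusted p = 0.0914), and from 100 ± 2.27 CPM to 79.1 ± 10.3 CPM in Pkd2 (adjusted p = 0.0521). Cyp2j9 went from 18.5 ± 4.12 to 11.8 ± 0.947 CPM in Pkd1 without overlap (adjusted p = 0.071) and from 18.3 ± 0.974 to 16.4 ± 1.66 CPM in Pkd2. Cyp2j13 stood at 12.3 ± 2.09 CPM in Pkd2 WT and 9.31 ± 0.795 CPM in KO (adjusted p = 0.164). Cyp2c23 was tested in Pkd2 alone, at 0.684 ± 0.498 and 0.848 ± 0.275 CPM.

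The Cyp4 fatty acid hydroxylases split. Of 17 with a row, 8 were tested in Pkd1 and 11 in Pkd2, and only Cyp4a10 and Cyp4a14 passed in each. The Cyp4f genes and Cyp4v3, which act on fatty acids and eicosanoids, did not pass. Cyp4f13 had 37.5 ± 6.99 CPM in Pkd1 WT and 41.2 ± 4.73 CPM in KO at P7 (log2 fold change 0.13 ± 0.167). Cyp4f16 had 35.3 ± 0.803 CPM in Pkd2 WT and 42.9 ± 4.7 CPM in KO (adjusted p = 0.089), and 25.8% of its 50-base words are shared with other Cyp4f genes. Cyp4f17 had 20.7 ± 2.58 CPM in Pkd1 WT and 20.1 ± 2.3 CPM in KO. Cyp4v3 had 11.2 ± 1.74 CPM in Pkd2 WT and 14.6 ± 2.66 CPM in KO (adjusted p = 0.185). Cyp4f15, Cyp4f18, Cyp4f39 and Cyp4x1 were below 2 CPM in every P7 library, and the fitted change of -5.28 ± 2.75 for Cyp4f15 in Pkd2 rests on 14 counts in 1 WT library against 0 counts in every other library of the comparison. Cyp4b1 had 10 ± 2.02 CPM in Pkd1 WT and 9.43 ± 3.43 CPM in KO.

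Among the other Cyp2 genes, 5 were tested in Pkd1 (median -0.67, 2 called lower) and 6 in Pkd2 (median -0.03, 1 called lower). Cyp2e1 was at 3.42 ± 1.91 CPM in Pkd1 WT and 2.18 ± 1.41 CPM in KO, and at 4.08 ± 0.682 CPM and 4.07 ± 1.45 CPM in Pkd2. Cyp2u1, an orphan fatty acid hydroxylase, was at 4.21 ± 0.882 CPM in Pkd1 WT and 2.64 ± 0.552 CPM in KO (adjusted p = 0.184). Cyp2t4 stood at 1.02 ± 0.396 CPM in Pkd1 WT and 0.882 ± 0.441 CPM in KO. Cyp20a1, an orphan P450 outside these groups, was at 46.7 ± 4.97 CPM in Pkd1 WT and 36.1 ± 5.54 CPM in KO (adjusted p = 0.125), and at 49.6 ± 0.804 and 49.4 ± 6.17 CPM in Pkd2.

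The vitamin D genes were not called by edgeR in KO against WT on any day with all libraries in the fit. Cyp27b1 makes the active hormone and Cyp24a1 inactivates it. At P7 Cyp24a1 stood at 16.6, 16.1 and 17.7 CPM in Pkd2 WT and at 46.8, 15.5 and 29.6 CPM in KO, a log2 fold change of 0.87 ± 0.333 (adjusted p = 0.122), with 1 KO library under all WT libraries. DESeq2 called Cyp24a1 there (adjusted p = 0.0242). Of the 6 edgeR fits that leave out 1 library, 1 called it. This was the fit without that KO library, replicate 2 (log2 fold change 1.19 ± 0.191, adjusted p = 0.0215). Without KO replicate 1 the change was 0.44 ± 0.252 (edgeR adjusted p = 0.32). In Pkd1 it stood at 9.2, 17.2 and 18.5 CPM in WT and at 17.2, 7.94 and 44.1 CPM in KO. Cyp27b1 at P7 had 8.01 ± 3.89 CPM in Pkd1 WT and 7.47 ± 2.76 CPM in KO.

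Both genes varied widely between days and between libraries of a group. Over the 36 libraries Cyp27b1 ran from 1.33 to 170 CPM and Cyp24a1 from 7.11 to 164 CPM. In Pkd2 at P3, all 6 libraries held 1.33 to 6.17 CPM of Cyp27b1, the lowest level of any day of that model, and 34.8 to 164 CPM of Cyp24a1. At P1 in the Pkd2 model Cyp27b1 was at 42, 78.5 and 87.3 CPM in WT and 81.5, 170 and 67.8 CPM in KO. Pkd1 P3 did not share the low level, with 7.49 to 44.3 CPM.

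Cyp27b1 was lower at P7 than at P1 in WT kidneys of both models, with log2 changes of -2.84 ± 0.708 in Pkd1 (adjusted p = 0.0206) and -2.17 ± 0.431 in Pkd2 (adjusted p = 0.00937). The WT libraries did not overlap between the days. In Pkd1 the call was lost without P1 WT replicate 3 or P7 WT replicate 3. In Pkd1, P1 WT replicate 3 stood at 114 CPM against 29.5 and 27.4 CPM in replicates 1 and 2. The KO library with the same number had 119 CPM against 21.4 and 31.4 CPM. The same 2 libraries also held the highest Cyp24a1 of P1 in that model (93.3 and 82.6 CPM against 25.7 to 35.7 CPM) and the lowest Cyp4a10 (7.38 and 4.86 CPM against 42.8 to 72.8 CPM). Cyp4a14 was at 0.527 and 0.385 CPM there and at 2.63 to 13.1 CPM in the other 4 libraries. Same-numbered KO and WT libraries of Pkd1 P1 deviated together over all transcripts (r = 0.205 to 0.518), which was not seen for every number at the other days. A fit with the number as a block left 0 P450 genes called at Pkd1 P1.

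**Figure D4:**
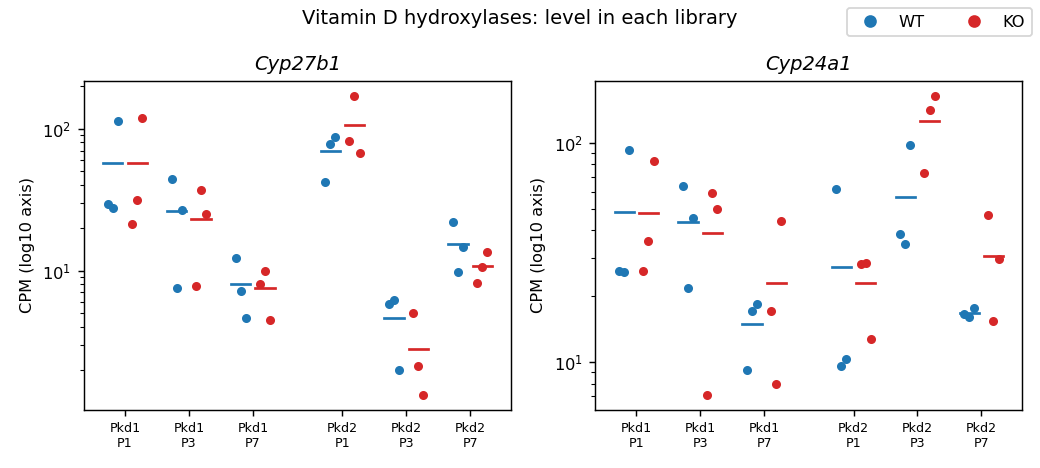
Level in CPM (log10 axes) of Cyp27b1 and Cyp24a1 in each library (points, WT blue and KO red) with the mean of 3 libraries (line), by model and day. In the Pkd2 model Cyp27b1 is lowest at P3 (1.33 to 6.17 CPM), where the group means of Cyp24a1 are highest (57 CPM in WT and 126 CPM in KO).

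The retinoic acid gene with a tested row was Cyp26a1, which clears retinoic acid. Its level was 1.54 ± 0.317 CPM in Pkd1 WT and 2.15 ± 1.37 CPM in KO, and 2.05 ± 0.519 CPM and 2.16 ± 0.365 CPM in Pkd2, so that changes of 0.48 ± 0.504 and 0.07 ± 0.308 did not exceed the spread. Cyp27a1, a sterol hydroxylase of mitochondria, had 19.2 ± 5.27 CPM in Pkd1 WT and 19.9 ± 5.31 CPM in KO. Of the sterol genes none passed in edgeR at P7. Cyp51, which acts in cholesterol synthesis, was at 91.1 ± 10.3 CPM in Pkd1 WT and 108 ± 6.7 CPM in KO at P7 (adjusted p = 0.197), and at 119 ± 18.1 CPM and 126 ± 11.1 CPM in Pkd2. It stayed within 81.2 to 182 CPM over 36 libraries. Cyp46a1, which hydroxylates cholesterol, stood at 18.7, 18.6 and 18.8 CPM in Pkd2 WT and at 15.6, 13.2 and 13.1 CPM in KO without overlap (-0.42 ± 0.116, adjusted p = 0.0504), and DESeq2 called it (adjusted p = 0.0429). In Pkd1 its direction was the other, from 22.2 ± 4.11 CPM in WT to 27.4 ± 5.98 CPM in KO (0.30 ± 0.211, edgeR adjusted p = 0.345).

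Cyp1b1, a target of the aryl hydrocarbon receptor Ahr, stood at 74, 89.7 and 53.4 CPM in Pkd2 WT and at 117, 97.4 and 102 CPM in Pkd2 KO at P7. All KO libraries were above all WT libraries, and the change of 0.55 ± 0.175 had an adjusted p of 0.0755. DESeq2 called it (adjusted p = 0.00873). Of the 6 edgeR fits that leave out 1 Pkd2 library, 1 called it, that without WT replicate 2. The adjusted p of these fits ran from 0.0291 to 0.181. In Pkd1 Cyp1b1 was at 73.6, 59.2 and 105 CPM in WT and 82.5, 107 and 123 CPM in KO, with overlap. It was called higher in 1 of 6 such fits, that without WT replicate 3 (0.64 ± 0.183, edgeR adjusted p = 0.0384). The highest adjusted p of the 6 was 0.516.

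In WT kidneys, the P450 genes called between P1 and P7 were mostly higher at P7. Of 28 tested in Pkd1, 6 were called higher and 1 lower, against 8.86% of all transcripts called higher and 9.07% called lower. Of 34 tested in Pkd2, 6 were called higher and 3 lower, against 9.02% and 10.2%. The median log2 change of tested P450 genes was 0.29 and 0.10, and that of all transcripts 0.01 in each. Y-linked counts were present in 2 of 3 P1 libraries and none at P7 in Pkd1 WT, and in 1 of 3 and 2 of 3 in Pkd2 WT, and their part in these changes was not tested. Proximal tubule markers rose with age as well, with 8 of 12 called higher in Pkd1 WT (median log2 change 1.21) and 9 of 12 in Pkd2 WT (median 1.02), and none lower. Their summed level went from 2920 to 3420 CPM at P1 to 7610 to 8830 CPM at P7 in Pkd1 WT, and from 2980 to 5280 CPM to 8610 to 9950 CPM in Pkd2 WT. Their part in the change of the P450 genes was not tested either.

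Cyp4a14 rose by 4.58 ± 0.737 in Pkd1 (adjusted p = 0.00295) and by 4.40 ± 0.403 in Pkd2 (adjusted p = 0.000566). In Pkd1 WT it went from 12.2, 2.63 and 0.527 CPM at P1 to 115, 194 and 72.2 CPM at P7, and in Pkd2 WT from 14.6, 7.85 and 6.51 CPM to 212, 211 and 186 CPM. P3 lay between them, at 41.4 to 83 CPM in Pkd1 WT and 26.3 to 74.2 CPM in Pkd2 WT.

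Cyp3a13, a drug-metabolizing P450, was close to 0 at P1 and measurable at P7. In Pkd1 WT the 3 P1 libraries held 2 counts in all and the 3 P7 libraries 89, a ratio of 31.2 (95% exact interval 8.39 to 262, counting error only). In Pkd2 WT it was at 0.229 ± 0.139 CPM at P1 and 2.3 ± 0.424 CPM at P7 (log2 change 3.30 ± 0.58, adjusted p = 0.00564). Cyp2j5 was higher by 1.23 ± 0.247 in Pkd1 and 1.16 ± 0.268 in Pkd2 (adjusted p = 0.00788 and 0.0173). Cyp2s1 and Cyp2j6 were called higher in both models, Cyp2j11 in Pkd1 and Cyp4a10 in Pkd2, where it went from 52 ± 26.9 CPM to 148 ± 7.04 CPM (adjusted p = 0.0103). In Pkd1 Cyp4a10 went from 41 ± 32.8 CPM to 110 ± 21.6 CPM and did not pass (adjusted p = 0.099).

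Besides Cyp27b1, Cyp4x1 (1.05 ± 0.504 CPM at P1 and 0.143 ± 0.139 CPM at P7, adjusted p = 0.0423) and the oxysterol hydroxylase Cyp7b1 (22.8 ± 1.61 and 15.5 ± 1.96 CPM, adjusted p = 0.0231) were lower at P7 in Pkd2 WT. Each of the 6 genes higher in Pkd1 was called in all 9 fits that leave out 1 WT library. In Pkd2 the number of calls was 4 without P1 WT replicate 2 or 3, 5 without P7 WT replicate 1 or 2, and 13 without P3 WT replicate 2, the library with adrenal RNA. Of the 9 Pkd2 fits, 3 called Cyp4x1, 4 called Cyp2j6, and 5 called each of Cyp2j5 and Cyp7b1. Cyp2s1 and Cyp4a10 were each called in 8, and Cyp27b1, Cyp3a13 and Cyp4a14 in all 9.

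**Figure D5:**
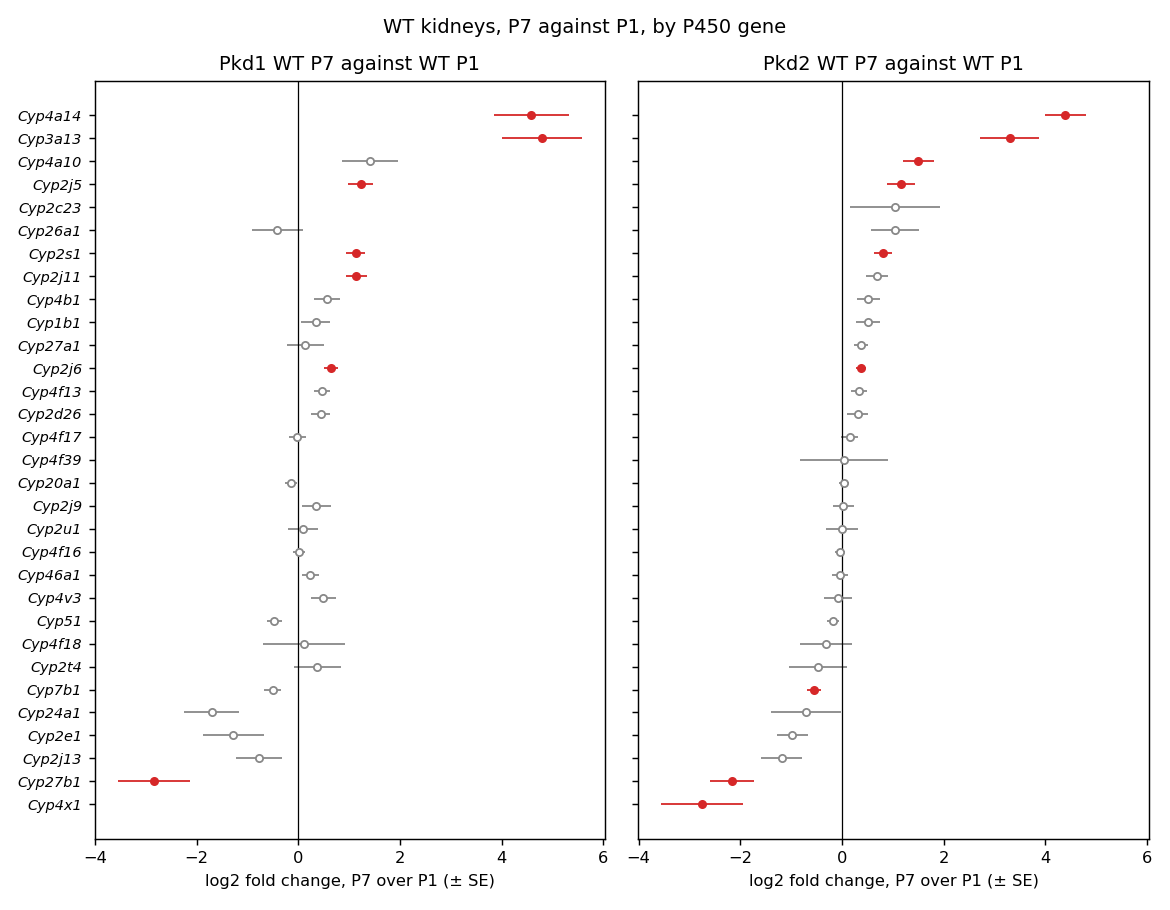
Log2 change from P1 to P7 in WT kidneys with its SE (bars) for each tested P450 gene, in Pkd1 (left) and Pkd2 (right), ordered by the Pkd2 value. Filled red points have an edgeR adjusted p under 0.05. Cyp4a14 and Cyp3a13 lie at the top in both models, with values of 4.58 and 4.79 in Pkd1 and 4.40 and 3.30 in Pkd2, and Cyp27b1 lies near the bottom. Cyp2f2, Cyp3a11 and Cyp4f15 (SE above 1.2 in Pkd2) are not drawn.

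Genes that work with the P450 enzymes were read from fixed lists. Of 8 electron donors and membrane partners, Por was lower in KO at P7 in both models, with log2 fold changes of -0.89 ± 0.162 (adjusted p = 0.0156) and -0.27 ± 0.0606 (adjusted p = 0.0242). Cyb5r3, a cytochrome b5 reductase, was higher in Pkd2 KO by 0.30 ± 0.051 (adjusted p = 0.00983), and no other listed gene passed. Fdx1 and Fdxr, which serve mitochondrial P450 enzymes and adrenal steroid synthesis, had SE of 0.436 to 0.721. Of 16 listed transcription factors, 6 were tested in Pkd1, with 3 called lower (range -0.98 to 0.70), and 7 in Pkd2, with 1 called lower (range -1.49 to 0.25). None was called higher. Nr1i2, Nr1i3, Cebpa and Cebpb were at 3 counts or fewer in every library, and no statement on their expression is made. Hnf4a, a factor of liver and proximal tubule, was lower in both (-0.98 ± 0.209, adjusted p = 0.0243, and -0.57 ± 0.139, adjusted p = 0.0335). The vitamin D receptor Vdr was lower in Pkd1 (-0.79 ± 0.184), with -0.33 ± 0.138 in Pkd2. Of 14 genes of epoxide hydrolysis and retinoid handling, 11 were tested, with 2 called higher and none called lower in Pkd1 at P7. Aldh1a1, which makes retinoic acid, was higher in Pkd1 KO by 3.45 ± 0.476 (adjusted p = 0.00817), and by 1.87 ± 0.161 (adjusted p = 0.018) at P3, where it was the transcript called among all those tested. None of the list was called in Pkd2 at P3 or P7.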

How the data were processed

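RNA of whole kidneys was sequenced in 36 libraries. Per the labels and the methods of the study, the authors called bases with CASAVA 1.8.2, aligned reads to mm10 with TopHat2 2.1.0 and counted reads per RefSeq transcript with HTSeq under default options. The deposited values are raw counts per transcript, with no normalization, and library totals of 7179152 to 15850818 set the counting error.

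From these counts, edgeR 4.0.16 (R 4.3.3) was run with TMM factors over the 18 libraries of a model, keeping a transcript if 3 or more of these libraries held 10 or more counts of it. The quasi-likelihood test compared KO with WT for each day over 6 libraries, WT at P7 with WT at P1 over 9 libraries, and the KO effects between days and between models as interactions. P-values were adjusted by Benjamini-Hochberg over all transcripts tested, with a threshold of 0.05. CPM for display used TMM factors over 36 libraries. Libraries of a group differed by more than sampling noise, with a chi-square per transcript of 4.89 to 59.3.

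Alternatives were other size factors, DESeq2 1.42.0, no count filter, a replicate block, summed rows, a minimum change of 2-fold, all 18 libraries in 1 fit, a Y-linked term and leaving out each library. Leaving out the 4 libraries with adrenal or liver RNA was added after seeing the data.

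Named genes were the 5 most abundant, those called at P7, the 3 largest rises and falls with age, those called in an interaction, and genes of vitamin D, retinoic acid, sterol, Ahr and fatty acid pathways. Other genes named were chosen after their values were seen. Cyp2c44 was not matched by that symbol. It may be the gene listed here as Cyp2c23, whose values are given above. Cyp2c23 has 2 transcript rows, so its low counts fall under the limit stated for such genes. Some genes of the partner lists are not reported here. Members and gene lists were chosen with earlier results of these data known.

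Same-numbered KO and WT libraries were checked for deviations in common, with r of 0.205 to 0.518 at Pkd1 P1. Values in the other groups were lower or mixed.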

Additional observations from a re-analysis of the deposited data

Results flagged for a closer look

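In the Pkd1 model the KO effect differed between P7 and P1 for 4 P450 genes, by an interaction test in edgeR. The differences on the log2 scale were -2.31 for Cyp2j11, -1.88 for Cyp2j5, -1.21 for Cyp2d26 and -0.84 for Cyp2s1. Each gene was lower in KO at P7, while the KO effects at P1 were 0.13, 0.26, -0.06 and 0.04 in the same order. At P1 no KO library held Y-linked counts and 2 of 3 WT libraries did, while at P7 all KO libraries and no WT library did, so that this cannot be told apart from the day.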

How the results depend on the processing

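Counts of P450 genes called at P1 and P3 stayed at 0 under every alternative run. With a Y-linked term and 18 libraries in 1 fit, 0 genes were called in Pkd1 at P7 instead of 6, or of 7 in that fit without the term, while the log2 fold changes of the 6 genes ran from -0.90 to -3.75. In Pkd2 at P7, 5 became 2 with a minimum change of 2-fold and 10 with DESeq2, 2 of them higher (Cyp1b1 and Cyp24a1). In Pkd1 WT kidneys between P1 and P7, 7 became 11 with DESeq2. The causes were not tested, apart from the stricter fold rule itself. Shares of all transcripts called under the alternatives were not computed, so these counts are not set against a background.

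The replicate block gave 6 calls in Pkd1 and 7 in Pkd2 at P7, 8 and 7 for age in WT, 4 and 0 for the change of the KO effect, and 0 between models. At Pkd1 P1, where same-numbered libraries deviated together, it gave 0.

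Leaving out 1 library gave 3 to 7 calls in Pkd1 and 3 to 6 in Pkd2 at P7, 7 to 9 and 4 to 13 for age in WT, 1 to 6 and 0 to 1 for the change of the KO effect, and 0 to 1 between models.

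Direction turned in genes that were not called. In Pkd1 at P7 with the Y-linked term, Cyp24a1 went to -0.58, Cyp26a1 to -1.14, Cyp27a1 to -0.56 and Cyp51 to -0.15. In Pkd2 at P7, Cyp26a1 went to -0.03 with that term and to -0.01 without the 4 libraries with adrenal or liver RNA. Cyp2e1 there went to -0.0045 with DESeq2, -0.04 with the block, -0.05 with the Y-linked term and -0.15 without the 4 libraries. Leaving out 1 library, Pkd1 values ran from -0.25 to 1.02 for Cyp24a1, -0.19 to 0.76 for Cyp26a1, -0.19 to 0.29 for Cyp27a1, -0.38 to 0.34 for Cyp27b1 and -0.31 to 0.17 for Cyp4b1. In Pkd2 they ran from -0.12 to 0.22 for Cyp26a1, -0.15 to 0.29 for Cyp2e1 and -0.04 to 0.18 for Cyp51. With 3 libraries a group, small changes of genes at a few CPM were not detectable.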
